A study of Rattus norvegicus with 24 samples.

Results

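The genes described here are 95 genes whose mRNA was more abundant in the core than in the shell of the rat nucleus accumbens (NAc core, NAc shell), out of 17323 genes counted. Each had a mean of at least 5 CPM (a gene's count divided by the library's total and multiplied by 1000000) over the 8 NAc core libraries, and that mean was at least 1.5 times the mean of the 8 NAc shell libraries. NAc core was also above NAc shell in each of the 8 rats. Genes with a mean NAc level 8 or more times the mean of the ventral tegmental area (VTA), or 1/8 of it or less, were left out, with 1 VTA library (rat 2) kept out of the VTA mean. The rule also named 3 gene IDs to leave out, and none of them had met the other conditions. The members were thus chosen by their measured CPM in NAc core, NAc shell and VTA, and their differences between regions are given as a description without a test.

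RNA was sequenced from the hand-dissected NAc core, NAc shell and VTA of 8 male F1 rats, 1 library for each rat and region and 24 in all. The parents were F344 (Fischer) and BN (Brown Norway) inbred rats. The father was F344 and the mother BN in cross A (rats 1, 2, 11 and 15), and the strains were exchanged in cross B (rats 3, 4, 13 and 16), so all 8 rats were F1 hybrids of the same pair of strains. The labels give the parts of the accumbens only as abbreviations (nac, nash), and reading them as core and shell rests on the study's methods. According to the labels, rats 1, 2, 3 and 4 were injected with 0.4 mg/kg nicotine on days 1 to 4 and rats 11, 13, 15 and 16 with saline, a regimen that the study's methods give for the sensitization experiment but not under self-administration. All 8 later received intravenous nicotine over 6 sessions (10 infusions per session, each of 30 µg/kg), and the tissue was taken on day 15. No group was free of nicotine, and the ages of the rats were not given in the sources used here. The NAc libraries of rats 1 and 2 were preparation batch E, those of rats 3 and 4 batch F and those of the 4 saline-injected rats batch G. The injection and the batch therefore cannot be told apart, and the crosses could be compared within 1 batch only in the saline-injected rats.

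The nucleus accumbens is the ventral part of the striatum and receives dopamine from neurons of the VTA. Most of its neurons are GABAergic medium spiny neurons that carry dopamine receptors. The core resembles the dorsal striatum in its connections and is known for its part in cue-guided and goal-directed actions, and the shell is more closely tied to limbic and hypothalamic areas and to the response to rewards and drugs. The border between them is gradual, and a hand dissection separates them by position.

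The deposited counts carry Ensembl gene IDs without symbols, and none of the IDs was in the gene table used. Names from the study's supplementary tables were not used here. The genes are given by ID or by their rank in the core-to-shell ratio (rank 1 is the largest), their functions are not described, and the region labels were not checked against marker genes. Library totals ranged from 17563458 to 24405856 counts. In bulk tissue, fewer cells of a type and less RNA per cell cannot be told apart.

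Of the 17323 genes, 11537 reached the level in NAc core, 134 of these reached the ratio and 111 of those were higher in the core in every rat. The VTA limits then removed 16 genes, 14 with a higher level in the NAc and 2 with a higher level in the VTA. The same rule turned around gave 156 genes higher in NAc shell, which serve here as a comparison. The members just inside the ratio limit had ratios of 1.503, 1.506 and 1.514, and the genes just outside it 1.495, 1.491 and 1.490. At the VTA limit, the NAc-to-VTA ratios were 7.77, 7.43 and 7.15 inside and 8.06, 8.29 and 8.67 outside. The lowest members in NAc core had 5.12, 5.20 and 5.47 CPM, and the nearest genes below the level had 4.77, 4.69 and 4.68 CPM. No gap separated the set from its neighbours.

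Most of the 95 differences were moderate. The ratio of the mean CPM in NAc core to that in NAc shell had a median of 1.76, with 61 genes under 2, 34 at 2 or more, 9 at 3 or more and 3 at 5 or more. Means ranged from 5.12 to 1844 CPM in NAc core (median 23.8) and from 0.935 to 775 CPM in NAc shell (median 11.6). Together the genes made up 1.03 to 1.35% of the counts of a NAc core library and 0.501 to 0.776% of those of a NAc shell library. In 65 of the 95, all 8 NAc core libraries lay above all 8 NAc shell libraries, which held for 1.4% of all genes tested. That share belongs to the contrast that chose the genes. In the other 30 genes the libraries of the regions overlapped, although each rat's own core library was the higher. The counts behind the values went down to 35 in NAc core and 8 in NAc shell, and 32 genes had a NAc shell library under 100 counts.

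ENSRNOG00000026087 had the largest ratio, 9.34. Its NAc core libraries ranged from 4.04 to 14.05 CPM with a median of 8.88 (8.73 ± 3.48 CPM, SD, n = 8), and its NAc shell libraries from 0.488 to 1.88 CPM with a median of 0.830 (0.935 ± 0.469 CPM, n = 8). The regions did not overlap, but each NAc shell value rested on few reads, down to 10 counts, and the ratio within a rat ranged from 4.20 to 26.6. Its VTA level was 0.622 ± 0.447 CPM (n = 7), which was close to that of NAc shell. ENSRNOG00000005600, the second, had a ratio of 5.81. Its NAc core libraries ranged from 23.7 to 74.1 CPM (42.3 ± 16.5 CPM, n = 8) and its NAc shell libraries from 5.67 to 11.2 CPM (7.28 ± 1.92 CPM, n = 8), again without overlap. In the VTA this gene was at 29.4 ± 6.81 CPM (n = 7), between the levels of NAc core and NAc shell but nearer to the core.

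The gene of rank 3 had 19.7 ± 4.56 CPM in NAc core and 3.69 ± 0.810 CPM in NAc shell, a ratio of 5.33, and its ratio was at least 3.98 in every rat. The genes of ranks 4 and 5 also had ratios above 3.5, but their NAc core and NAc shell libraries overlapped and their lowest NAc shell counts were 8 and 12. The ratio of rank 4 within a rat ranged from 1.40 to 8.48. The genes of ranks 6 and 7 had VTA means a little below those of NAc shell. Rank 6 had 21.4 ± 3.07 CPM in NAc core, 6.15 ± 3.82 CPM in NAc shell and 4.92 CPM in the VTA, and rank 7 had 60.7 ± 7.74, 17.8 ± 4.21 and 13.7 CPM. Rank 8 was lower still in the VTA, with 9.78 ± 2.34 CPM in NAc core, 2.91 ± 0.650 CPM in NAc shell and 1.08 CPM in the VTA. Rank 9 showed the opposite order of the lower regions, since its VTA mean of 35.2 CPM was close to its NAc core mean of 37.3 ± 6.71 CPM and far from its NAc shell mean of 11.6 ± 3.89 CPM. In all 4 of these genes the NAc core and NAc shell libraries did not overlap.

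Among the most abundant genes, the member with the highest NAc core CPM (rank 22) had 1844 ± 292 CPM in NAc core and 775 ± 197 CPM in NAc shell, with every NAc core library above every NAc shell library. The 3 next most abundant members had NAc core means of 1174, 1146 and 845 CPM and ratios of 1.59, 1.92 and 1.62.

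The size of the difference varied between rats. The median ratio over the 95 genes was 1.73 in rat 1, 1.59 in rat 2, 2.03 in rat 3 and 2.16 in rat 4, and 1.92 in rat 11, 1.71 in rat 13, 2.05 in rat 15 and 1.59 in rat 16. Rats 2 and 16 had the smallest medians and rats 3, 4 and 15 the largest, and neither the cross nor the injection alone separated the rats. The medians were 1.59 to 1.73 in the nicotine-injected rats of cross A and the saline-injected rats of cross B (rats 1, 2, 13 and 16). They were 1.92 to 2.16 in the other 4 rats. This split by combination was read from the same medians, with 2 rats in each combination. The medians rest on the core and shell values that the rule used, so the split is a description. The batch also differed between the combinations after nicotine. Over all genes with a mean of at least 5 CPM in NAc core, the median ratio ranged from 0.958 (rat 4) to 0.987 (rat 13). Of the 95 genes, 85 reached a ratio of 1.5 in rat 3 but 56 in rat 2, and 21 reached it in every rat. The smallest ratio of a gene fell in rat 13 for 28 genes and in rat 2 for 22. The SD of a gene's log2 ratio over the 8 rats had a median of 0.35. The most even gene (rank 90, SD 0.11) had ratios of 1.36 to 1.69, and the least even (rank 14, SD 1.04) had ratios of 1.33 to 8.99.

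**Figure D1:**
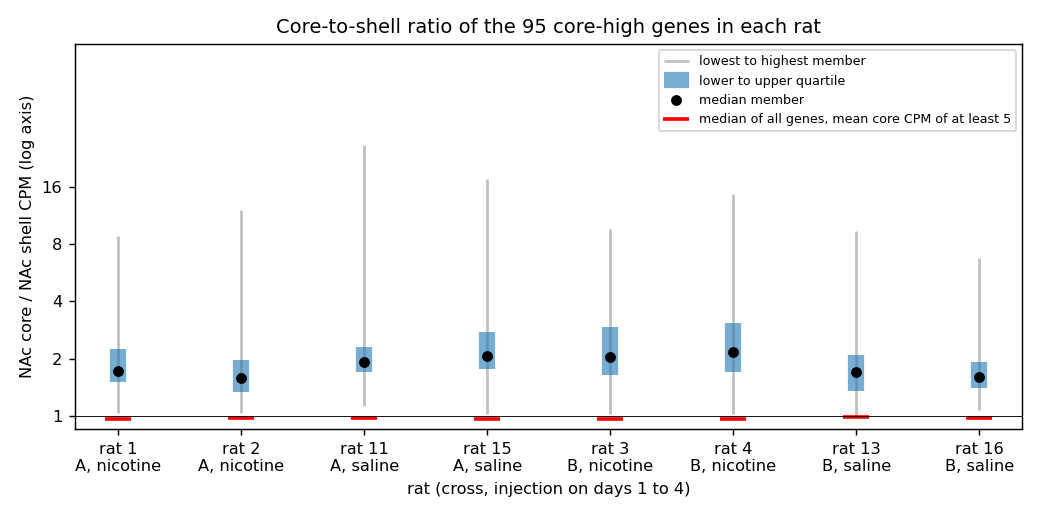
Ratio of NAc core to NAc shell CPM (log axis) of the 95 genes in each of the 8 rats, labelled by cross and injection. Grey lines span the lowest to the highest member, blue bars the range from lower to upper quartile, black points mark the median member and red dashes the median of all genes with a mean NAc core level of at least 5 CPM; the median members lie between 1.59 and 2.16.

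In the VTA these genes did not share one level. Without the VTA library of rat 2, 57 of the 95 genes (60%) had a VTA mean below both parts of the accumbens, 22 (23.2%) lay between NAc shell and NAc core, and 16 (16.8%) were above both. Among all 11416 genes tested that met the same level and VTA limits, these shares were 49.1%, 8.77% and 42.1%. The median NAc-to-VTA ratio was 1.76 for the 95 genes and 1.03 for those 11416 genes. The rule set a core-to-shell ratio of at least 1.5 for the 95 genes and not for the others, which widens the band between the parts for the 95 genes alone, so these shares are a description. The gene highest in the VTA relative to the NAc (rank 60) had 58.0 CPM in the VTA, 20.3 in NAc core and 11.98 in NAc shell. At the other end, the genes of ranks 1, 63 and 57 had the highest NAc-to-VTA ratios (7.77, 7.43 and 7.15), and their NAc core means were 14.04, 9.30 and 9.00 times their VTA means. The gene of rank 11 had 9.37 times as much in NAc core as in the VTA.

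**Figure D2:**
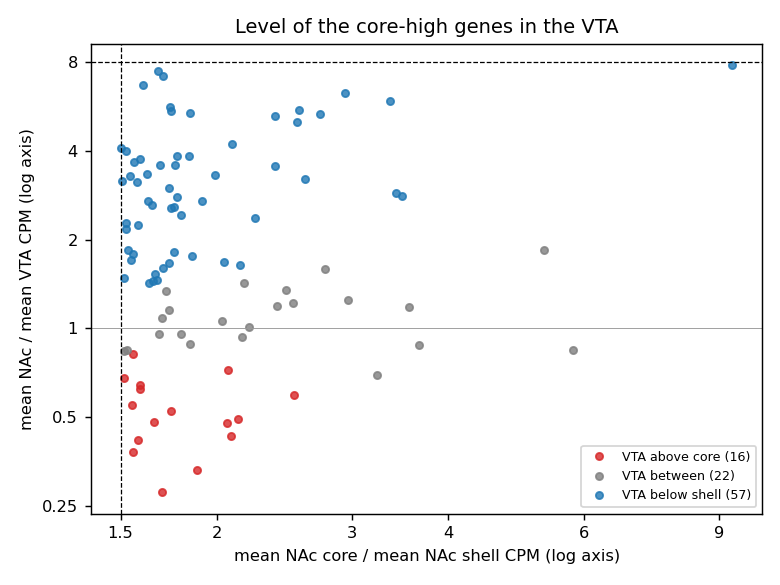
Each point is 1 of the 95 genes, with its mean NAc core to mean NAc shell CPM on the horizontal axis and the mean NAc to mean VTA CPM on the vertical axis (both log axes; VTA without rat 2). Dashed lines mark the limits of the rule at 1.5 and 8; 57 genes had a VTA mean below NAc shell, 22 between the parts and 16 above NAc core.

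The VTA library of rat 2 differed from the other VTA libraries in these genes. It was above all 7 others in 52 of the 95 genes, against 25.5% of all genes tested, and below all of them in 17, against 24.1%. Its median difference from the mean of the others was 0.60 on the log2 scale for the 95 genes and 0.01 for all genes tested. The difference had a median of 0.90 among the genes whose VTA level was below NAc shell, with 47 of 57 higher in rat 2, and medians of 0.09 and 0.06 among those between and above. ENSRNOG00000016156 was at 720 CPM in that library and between 166 and 292 CPM in the 7 others, whereas its NAc shell level was 520 ± 152 CPM (n = 8). This library was preparation batch L with the VTA library of rat 16, which had a median deviation of -0.05 from the genes' VTA means. The part of the batch in this difference was not tested.

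The 95 genes moved together between libraries of the same region, above all in NAc shell. The first principal component of log2(CPM + 0.5), taken over the 8 libraries of a region, held 62.5% of their variance in NAc shell, 58.0% in the VTA and 36.8% in NAc core. For the 156 genes higher in NAc shell these shares were 49.0%, 48.9% and 36.0%, and for all genes tested with a mean NAc level of at least 5 CPM 21.9%, 47.1% and 22.4%. The median SD of a gene over the NAc shell libraries was 0.30 on the log2 scale for the 95 genes, 0.22 for the 156 shell-high genes and 0.13 for all those genes. In NAc core it was 0.21, 0.26 and 0.14, so that each set varied more in the region where it was lower. The rule itself made each set lower there, and the sets were not matched for level, so this is a description.

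In NAc shell, the median deviation of the 95 genes from their own means was 0.18 in rat 1, 0.19 in rat 2 and 0.18 in rat 16, and 0.05 in rat 13. It was -0.11 in rat 3, -0.15 in rat 4, -0.10 in rat 11 and -0.25 in rat 15. The libraries above the mean were thus those of the nicotine-injected rats of cross A and the saline-injected rats of cross B, and those below were of the other two combinations. In rat 16, 82 of the 95 genes were above their own mean, and in rat 15, 17 were. In NAc core the deviations ranged from -0.11 (rat 13) to 0.15 (rat 1), and both rats of a cross and injection fell on the same side of 0 only in cross B. The 156 shell-high genes deviated in NAc shell by -0.12, -0.02, -0.12 and 0.04 in rats 1, 2, 16 and 13 and by -0.05, 0.08, 0.20 and 0.09 in rats 3, 4, 11 and 15. They thus lay on the opposite side of 0 from the 95 genes in 6 of the 8 rats, and the cause of these deviations was not tested.

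**Figure D3:**
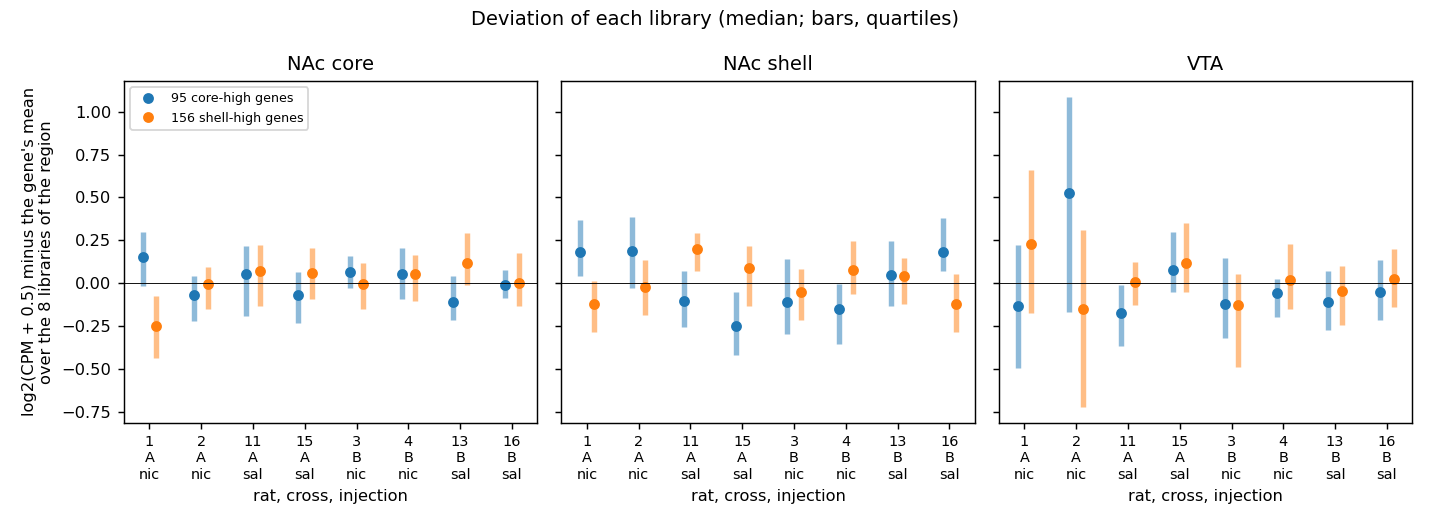
Median deviation of each library from the genes' own means over the 8 libraries of its region, in log2(CPM + 0.5), for the 95 core-high genes (blue) and the 156 shell-high genes (orange), with bars from lower to upper quartile of the genes. Rats are labelled by cross (A, B) and injection (nic, sal); the blue points of NAc shell are above 0 in rats 1, 2, 13 and 16, and the VTA library of rat 2 has the largest deviation, 0.52.

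The crosses were compared to ask whether expression differed with the direction of the cross, since the study had compared the crosses in nicotine self-administration. The strain of the mother changed with that of the father, so the parts of the parents cannot be told apart. The rule used no cross or injection label. In NAc core, 0 of the 95 genes differed between the crosses at an adjusted p under 0.05 (edgeR, Benjamini-Hochberg over all 16289 genes tested), where 0.0184% of all genes did, and the smallest adjusted p was 0.411. Of the members, 13 had an unadjusted p under 0.05, against 9.36% of all genes. The genes with the smallest p in each direction, of which none passed, were ENSRNOG00000021102 (log2 difference of cross A over cross B 0.25 ± 0.07 SE) and ENSRNOG00000001368 (0.38 ± 0.11), and ENSRNOG00000018752 (-0.43 ± 0.12) and ENSRNOG00000051837 (-0.50 ± 0.15), with adjusted p between 0.411 and 0.424. DESeq2 also called 0 of the 95 (0.399% of all genes).

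In NAc shell, 0 of the 95 genes passed, where 0.00614% of all genes did, and 5 had an unadjusted p below 0.05 against 4% of all genes. All 5 were lower in cross A, as were 2.31% of all genes at that level. The smallest adjusted p in edgeR was 0.995, and DESeq2 called 0 of the 95 (0.0307% of all genes). The genes with the smallest p among those lower in cross A were ENSRNOG00000004180 (-0.17 ± 0.06) and ENSRNOG00000018752 (-0.60 ± 0.21). Among those higher in cross A they were ENSRNOG00000001368 (0.19 ± 0.10) and ENSRNOG00000005109 (0.35 ± 0.18), with an unadjusted p of 0.0726 and 0.0785 in edgeR. Both changed sign with the batch as a covariate, a fit that takes the cross difference from the saline-injected rats alone. In the VTA, 0 genes passed, as for 0% of all genes, and 9 had an unadjusted p under 0.05 against 5.7% of all genes, or 8 without the library of rat 2. DESeq2 called 0 (0.0368% of all genes). ENSRNOG00000008346 (rank 5) stood out there by single libraries. It was at 23.2 CPM in rat 1 and 6.10 CPM in rat 2, and between 0.133 and 0.410 CPM (3 to 10 counts) in the 6 other VTA libraries. Its log2 difference was thus 4.57 ± 1.41 with an adjusted p of 0.812 in edgeR. Its VTA mean without rat 2, 3.56 CPM, rested on rat 1. So did its place between NAc shell and NAc core and inside the VTA limit of the rule.

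The injection gave no call either. In NAc core 0 of the 95 genes passed in edgeR, as for 0% of all genes, and 8 had an unadjusted p under 0.05 against 6.39% of all genes. DESeq2 called 0 (0.0184% of all genes). The median log2 difference of nicotine over saline was 0.10 and 74 of the 95 were positive, against 49.9% of all genes. The 95 genes move together, so this count is not one of independent genes. In NAc shell 0 genes passed, again as for 0% of all genes, and 7 had an unadjusted p under 0.05 against 2.95% of all genes. All 7 were higher after nicotine, as were 1.6% of all genes at that level, and DESeq2 called 0 (0.0246% of all genes). None of the following genes passed in edgeR. In NAc core the smallest p was that of ENSRNOG00000010617, which was lower after nicotine (-0.46 ± 0.14, adjusted p = 0.766), followed by ENSRNOG00000011568, which was higher (0.68 ± 0.22, adjusted p = 0.766). In NAc shell the smallest were those of ENSRNOG00000010165 (0.41 ± 0.11) and ENSRNOG00000025059 (0.75 ± 0.22), both higher after nicotine, with an adjusted p of 0.999.

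Whether the core-to-shell difference itself depended on the cross or the injection was fitted as an interaction over the 16 NAc libraries. The rule had used these same core and shell values within each rat, and genes whose order changed between rats had been left out, so the counts that follow are a description. For the cross, 0 of the 95 genes and 0% of all genes passed, with 1 member at an unadjusted p under 0.05 against 2.19% of all genes, and the smallest adjusted p was 1. For the injection, 0 of the 95 genes and 0% of all genes passed, with 0 members at an unadjusted p under 0.05 against 3.43% of all genes. DESeq2 called 0 in both tests (0.0123% of all genes in each).

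The remaining tests asked whether the crosses differed by another amount after nicotine than after saline. They were chosen after the data had been seen, and each combination of cross and injection holds 2 rats. After nicotine, the NAc libraries of cross A were batch E and those of cross B batch F. The interaction thus includes any difference between these batches, and the 2 cannot be separated here. In NAc shell, 13 of the 95 genes (13.7%) passed at an adjusted p under 0.05 in edgeR, where 0.35% of all genes did. The interaction is the log2 difference of cross A minus cross B after nicotine, less the same difference after saline, and it was positive in all 13 (0.338% of all genes). They made up 22.8% of the 57 genes called in all, of which 0 were among the 156 shell-high genes. An unadjusted p under 0.05 was found for 50 members against 7.42% of all genes, and 48 of them were positive against 4.45% of all genes. The median log2 interaction of the 95 genes was 0.52, with 74 positive, and -0.01 for all genes tested. Since the 95 genes moved together between the NAc shell libraries, these counts are not of independent genes. DESeq2 called 32 members (1.38% of all genes). The count in edgeR moved with single rats. Few or none of the 13 genes were still called in the fits without rat 1, without rat 2, without rat 4 or without rat 16. Each of these fits leaves 1 rat in a combination, which is assumed to vary like the rats of the other combinations.

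ENSRNOG00000017193 (rank 82) had the smallest p. Its NAc shell libraries were at 109 and 115 CPM in the nicotine-injected rats of cross A (rats 1 and 2) and at 59.3 and 58.4 CPM in those of cross B (rats 3 and 4). In the saline-injected rats they were at 86.4 and 66.6 CPM in cross A (rats 11 and 15) and at 115 and 110 CPM in cross B (rats 13 and 16). The crosses did not overlap under either injection, and their order was opposite. The log2 interaction was 1.501 ± 0.161 SE with an adjusted p of 0.00966 in edgeR (1e-12 to 0.0884 over 11 alternatives, 8 of them under 0.05). In NAc core the same rats had 164 and 126 CPM, 140 and 143 CPM, 157 and 140 CPM, and 116 and 131 CPM, in the same order of groups. There the crosses overlapped after nicotine, and cross A was the higher after saline.

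ENSRNOG00000016156 (rank 71) had the same pattern at a higher level. Its NAc shell libraries were at 629 and 675 CPM in the nicotine-injected rats of cross A and 352 and 308 CPM in those of cross B. In the saline-injected rats they were at 508 and 387 CPM in cross A and 635 and 667 CPM in cross B. The log2 interaction was 1.54 ± 0.17, with an adjusted p of 0.0103 in edgeR (3.95e-16 to 0.0901 over 11 alternatives, 7 of them under 0.05). Its NAc core libraries lay between 681 and 1022 CPM, above every NAc shell library.

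The 13 genes had interactions of 0.93 to 2.77 in NAc shell (median 1.60) and of -0.71 to 0.26 in NAc core (median -0.15). Their core-to-shell ratios, 1.52 to 2.97 with a median of 1.74, were like those of the other members, whose median was 1.76. By their VTA level, 10 of the 13 were among the 57 genes below NAc shell, 3 among the 22 in between and 0 among the 16 above NAc core. They included the member with the highest NAc core CPM (rank 22, interaction 1.35 ± 0.16, adjusted p = 0.0103 in edgeR) and the least even gene (rank 14, interaction 2.77 ± 0.48, adjusted p = 0.0449 in edgeR). In the opposite direction, ENSRNOG00000019404 had an interaction of -1.21 ± 0.25 that did not pass in edgeR (adjusted p = 0.0996, and 0.0205 to 0.382 over 11 alternatives, 1 of them under 0.05). Its NAc shell libraries were at 7.43 and 6.29 CPM in rats 1 and 2 and at 12.8 and 14.3 CPM in rats 3 and 4. ENSRNOG00000018752, the next, was at -1.03 ± 0.32 (adjusted p = 0.355).

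**Figure D4:**
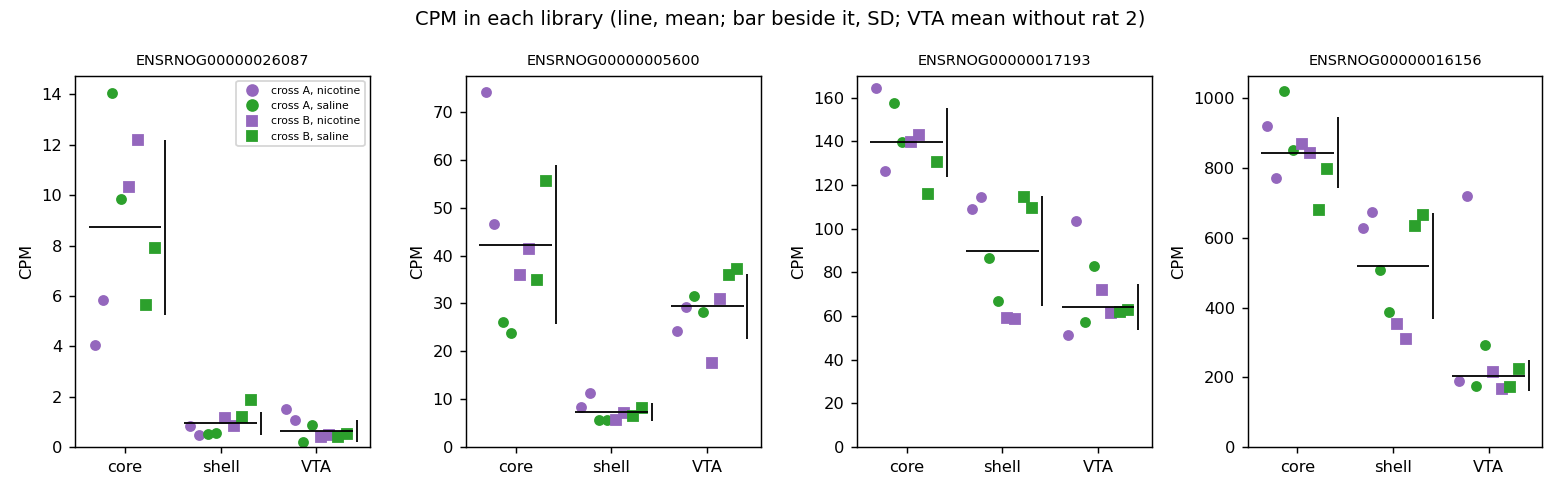
CPM in each library of the 2 genes with the largest core-to-shell ratio and the 2 genes with the smallest p for the interaction of cross and injection in NAc shell (circles cross A, squares cross B, purple nicotine, green saline; line, mean; bar, SD; VTA mean without rat 2). In NAc shell ENSRNOG00000017193 and ENSRNOG00000016156 are high in cross A after nicotine and in cross B after saline, and ENSRNOG00000016156 is at 720 CPM in the VTA library of rat 2.

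Within each injection, the median differences between the crosses in NAc shell had opposite signs, over 2 rats against 2. In the saline-injected rats, which share 1 batch, the median log2 difference of cross A over cross B was -0.27, with 32 of the 95 genes at an unadjusted p under 0.05 against 2.51% of all genes, but 0 passed the adjustment, where 0.0246% of all genes did. In the nicotine-injected rats the median was 0.29 and 16 genes passed, where 0.737% of all genes did, but there the cross and the batch cannot be told apart. With the batch as a covariate in NAc shell the median was -0.28 and 0 genes passed, where 0.00614% of all genes did. Batches E and F each hold a single cross, so this fit takes the cross difference from the same saline-injected rats. It is not a separate check and cannot adjust the difference in the nicotine-injected rats for the batch.

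In NAc core, the interaction of cross and injection called 0 of the 95 genes in edgeR, where 0.00614% of all genes passed, and 18 had an unadjusted p under 0.05 against 5.89% of all genes. The smallest adjusted p was 0.611, for ENSRNOG00000026087. Its NAc core libraries were at 4.04 and 5.85 CPM in the nicotine-injected rats of cross A against 10.3 and 12.2 CPM in those of cross B, and at 14.05 and 9.87 CPM against 5.65 and 7.89 CPM after saline. The interaction was -1.98 ± 0.38. For ENSRNOG00000005600 it was 1.52 ± 0.35 (adjusted p = 0.768), with 74.1 and 46.6 CPM against 35.9 and 41.4 CPM after nicotine, and 26.1 and 23.7 CPM against 34.8 and 55.6 CPM after saline. In both genes the crosses did not overlap under either injection. DESeq2 called these 2 genes alone of the 95 (0.104% of all genes), with adjusted p of 0.00434 and 0.00334, and over 11 alternatives each gene's adjusted p reached up to 1.

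Whether the interaction differed between NAc core and NAc shell was tested directly over both regions. This test also uses the core and shell values within each rat, on which the rule had set its condition. In edgeR 0 of the 95 genes and 0% of all genes passed, and 40 members had an unadjusted p under 0.05 against 6.97% of all genes. The median log2 difference of the 95 genes, NAc core minus NAc shell, was -0.57, and the value over all genes is not given here. ENSRNOG00000016156 (-1.90 ± 0.27) and ENSRNOG00000017193 (-1.72 ± 0.26) had the smallest adjusted p, 0.0564 for both. With the rat as a block, since the core and shell libraries of a number come from the same animal, 15 of the 95 genes passed, where 0.221% of all genes did, and DESeq2 without the block called 19 (0.411% of all genes). The counts thus depended on the test. Because of the rule's condition on these values, they do not decide whether the interaction of these genes was particular to NAc shell.

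**Figure D5:**
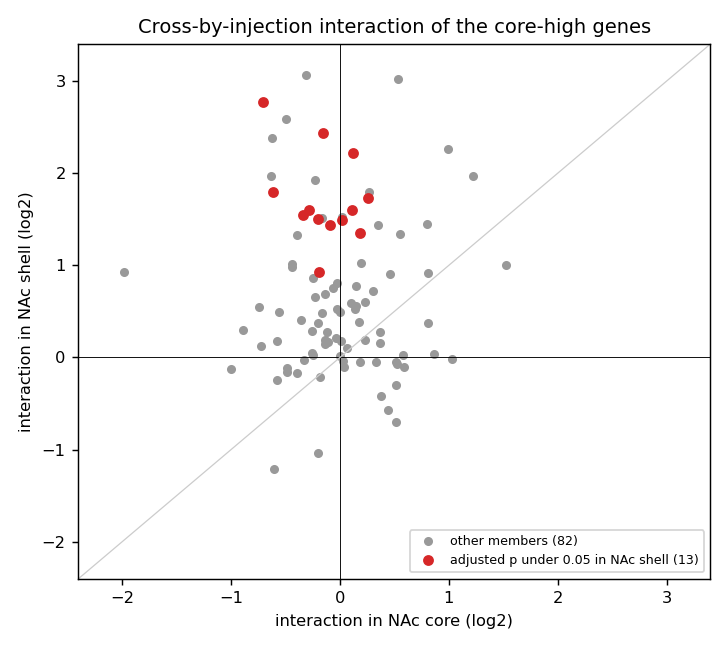
Interaction of cross and injection for the 95 genes, in NAc core on the horizontal axis and in NAc shell on the vertical axis (log2, cross A minus cross B after nicotine less the same after saline). The 13 genes that passed in NAc shell (red) lie between 0.93 and 2.77 there and between -0.71 and 0.26 in NAc core; the grey line marks equal values.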

How the data were processed

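The values were estimated counts per gene, which the authors deposited as whole numbers for 17323 Ensembl IDs. According to the methods and the submitters' notes, fastp 0.20.0 trimmed the paired reads, Salmon 0.12.0 quantified them on Rnor 6 and transcript values were summed to genes with tximport, without normalization. Salmon divides reads shared by near-identical genes, so such genes are uncertain. All 24 columns matched a sample title, and 0 were left over.

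CPM were computed from column sums. Genes with a median-ratio normalized count over 10 in at least 3 libraries were tested (16289 genes, including all 95). The test was edgeR 4.0.16's quasi-likelihood F test with TMM under R 4.3.3, two-sided, with Benjamini-Hochberg adjustment over all tested genes, and DESeq2 1.42.0 as an alternative. Cross and injection were tested on the 8 libraries of a region, and interactions with region on the 16 NAc libraries. Other alternatives were median-ratio scaling, no filter, injection, cross or batch as a covariate, injection groups alone, the rat as a block, and each rat left out in turn. The fits were tested on simulated counts. An SE is the absolute log2 fold change over the square root of F. Each library is from a separate rat within its region.

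The members, lists and tests were chosen with earlier results of these data known. The genes named were, per test, the 2 of smallest p in each direction among the 95 (fewer where the text names fewer), and the 2 of largest core-to-shell ratio. ENSRNOG00000008346 follows the same rule. Other members are given by rank because the deposited files do not pair IDs with names and the study's supplementary tables were not used here for names. The gene lists, region markers and promoters set for analysis need symbols and were not run.

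Same-numbered libraries come from 1 rat. The deviations from the group means of a rat's NAc core and NAc shell libraries correlated at -0.13 to 0.24 over the 8 rats for all tested genes (over 0.1 in 3) and -0.27 to 0.37 for the 95 genes (over 0.1 in 5). The chi-square statistic of 36 replicate pairs was 5.41 to 136 times its degrees of freedom, so none was a copy.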

Additional observations from a re-analysis of the deposited data

Results flagged for a closer look

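In the VTA, the median deviation of the 95 genes from their own means was 0.52 (log2) in rat 2 and between -0.17 and 0.08 in the 7 other libraries, a gap beyond Dixon's critical value for 8 samples. ENSRNOG00000016156 was at 720 CPM in the same library and at 166 to 292 CPM in the others, also beyond it. Both concern the library that the rule had already kept out of the VTA mean, so they are a description of it and not separate findings. Over the 22 groups of libraries examined, chance alone gives about 1.1 such gaps.

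The effect of the cross differed between nicotine-injected and saline-injected rats in NAc shell for 13 of the 95 genes, by the interaction test of edgeR. That test was chosen after the data had been seen, and the nicotine-injected rats of the crosses were prepared in different batches.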

How the results depend on the processing

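Raising the ratio limit to 2 left 34 of the 95 genes, a NAc core minimum of 10 CPM gave 75, CPM on TMM library sizes gave 119, and leaving out single rats gave 93 to 108. Under all alternatives but the following, the tests of cross, of injection and of their interactions with region called 0 of the 95 genes. The cross in the nicotine-injected rats alone was added after the data were seen. It called 16 genes in NAc shell, where 0.737% of all genes passed. In NAc core it called ENSRNOG00000051837, and the share of all genes for that fit is not given here. For the interaction of cross and injection, DESeq2 called 2 genes in NAc core and 32 in NAc shell, where leaving out single rats gave 0 to 21. For its difference between NAc core and NAc shell, DESeq2 called 19, no filter 2 and the fit with the rat as a replicate block 15, and leaving out single rats gave 0 to 12 (12 without rat 11, 6 without rat 15, 1 without rat 3). The block changed no other call. For the fits without the filter and without single rats, the share of all genes called is not given here. The counts of members in these fits are therefore a description. Of the genes named, ENSRNOG00000001368 and ENSRNOG00000005109 reversed in the cross in NAc shell with the batch as a covariate (-0.0031 and -0.14), the latter also in the saline-injected rats alone (-0.13), as did ENSRNOG00000008346 in the VTA (-0.24). In the NAc, batches E and F each held rats of a single cross. With the batch as a covariate, the cross was thus estimated from the saline-injected rats of batch G alone. The fit on saline-injected rats alone also leaves out rats 1 and 2, whose VTA libraries were the high ones of ENSRNOG00000008346. The cause of the differences between the injection groups was not tested. Each combination of cross and injection held 2 rats, and the NAc shell counts of the members went down to 8, which limits the precision of the low members. Without single rats, the lone rat of a combination is assumed to vary like the others.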
